A study of Homo sapiens and Mus musculus with 69 samples.

Results

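The integrin and laminin genes are described here in small cell lung cancer (SCLC) cell lines that expressed the intracellular domain of NOTCH1 from a vector or were treated with an inhibitor of LSD1. Members were chosen by name alone: rows whose symbol is that of an integrin α or β subunit or of a laminin α, β or γ chain. The rows described number 38 of 20516 genes in the human table, 27 integrin rows and 11 laminin rows, and 34 of 18501 genes in the mouse table, of which 33 symbols were in both. The rule also took in *ITGB2-AS1*, a noncoding RNA antisense to *ITGB2*, and the mouse row *Itgb2l*.

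RNA-Seq of polyA RNA was carried out on 60 libraries of 4 human SCLC lines and 9 libraries of KP1, a mouse SCLC line, with 3 libraries in each group. H82, H524, H69 and COR-L88 are lines of neuroendocrine (NE) classes of SCLC. H82, H524 and H69 were transduced with a lentiviral vector that expresses the intracellular domain of NOTCH1 (N1ICD) when doxycycline is given at 1 µg/mL, and each line had parental cells, vector cells without doxycycline and vector cells with it. H82 N1ICD vector cells were also made with *REST* KO and with STING KO by CRISPR-Cas9, each without and with doxycycline. H524 had a second vector, for REST, without and with doxycycline. REST is the repressor of neuronal genes that Notch signaling is known to raise in SCLC. COR-L88 cells carried no N1ICD vector: they were grown for 28 days in DMSO, in 100 nM TAS1440 (a reversible inhibitor of the histone demethylase LSD1) or in TAS1440 plus GSI (the γ-secretase inhibitor BMS-708163 at 2 µM, which blocks Notch cleavage), and COR-L88 STING KO cells in DMSO or TAS1440. KP1 cells were grown longer than 28 days in DMSO, TAS1440 or TAS1440 plus GSI (DBZ at 10 µM). The study shows single-cell clones of its KO lines, but the labels do not say which clones gave these libraries or whether the libraries of a group came from separate cultures, so *P* values measure the spread between these libraries, which may be technical.

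For the overexpression experiments the study collected the adherent cells, those that stayed on the plate until trypsin was used, after at least 28 days of doxycycline. Integrins and laminins are attachment genes, so in these libraries an effect of N1ICD and a selection of attached cells cannot be told apart. In bulk RNA, more cells with a gene switched on and more RNA of that gene per cell cannot be told apart either.

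Integrins are cell surface receptors, each made of 1 α and 1 β subunit, that join the matrix outside the cell to actin inside it. The α subunit largely sets the ligand: collagens, laminins, proteins with an RGD motif such as fibronectin, or partners on other cells. Laminins are trimers of 1 α, 1 β and 1 γ chain and are main components of basement membranes. SCLC cells of the NE type typically grow in suspension, as floating clusters, whereas non-NE cells often attach.

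Values are log2(RPKM + 1), where RPKM is reads scaled to gene length and library size, so a difference of 1 is about 2-fold for a well expressed gene and less than the true fold for a low one. The length behind RPKM is not given in the sources used here, and the smallest value above 0 was 0.136 RPKM for *ITGA5* and 0.315 RPKM for *LAMA3* but 0.0208 for *LAMB3*. Levels are therefore compared between groups for 1 gene and not between genes. A gene entered a test when it reached 1 in at least 3 libraries of its line, and it was called when limma's Benjamini-Hochberg adjusted *P* over all genes tested was below 0.05 and the log2 difference was at least 1 in size. Beside each count of members, the share of all genes tested that was called in that direction is given as the background.

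The promoters of *ITGA5*, *LAMB2* and *LAMB3* are shown because these genes were called higher in all 4 human lines, *ITGA5* in COR-L88 only without quantile normalization, and their windows hold a motif that was searched. The 250 bases before and 20 bases after each start are given 5′ to 3′ on the gene's strand, from RefSeq on GRCh38.p14, with matches in capitals.
ITGA5: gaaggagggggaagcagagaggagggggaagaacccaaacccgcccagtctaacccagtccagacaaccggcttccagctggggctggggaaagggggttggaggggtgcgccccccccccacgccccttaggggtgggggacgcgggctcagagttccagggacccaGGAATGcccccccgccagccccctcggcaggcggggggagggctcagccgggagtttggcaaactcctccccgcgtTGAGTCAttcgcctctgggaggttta
LAMB2: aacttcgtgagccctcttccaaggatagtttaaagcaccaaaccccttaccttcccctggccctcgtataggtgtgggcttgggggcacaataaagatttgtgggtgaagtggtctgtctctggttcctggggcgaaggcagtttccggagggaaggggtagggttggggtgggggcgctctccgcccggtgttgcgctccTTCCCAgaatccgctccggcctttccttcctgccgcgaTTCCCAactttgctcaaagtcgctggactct
LAMB3: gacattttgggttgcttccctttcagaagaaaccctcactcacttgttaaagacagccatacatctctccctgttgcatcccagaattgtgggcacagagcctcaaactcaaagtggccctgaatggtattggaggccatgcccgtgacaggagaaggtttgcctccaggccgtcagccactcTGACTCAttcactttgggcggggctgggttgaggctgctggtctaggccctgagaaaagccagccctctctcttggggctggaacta
These windows are chr12:54419247-54419516, chr3:49133031-49133300 and chr1:209651355-209651624, all on the minus strand, and the *LAMB3* window is the 1 of its 3 promoters that held a match. Searched on both strands were TGGGAA, the core of RBPJ (the DNA-binding partner of N1ICD), TGANTCA (AP-1) and GGAATG (TEAD). *LAMB2* held TGGGAA, on the other strand, 49 and 11 bases before the start. *ITGA5* held the AP-1 motif 6 bases and the TEAD motif 82 bases before the start, and *LAMB3* the AP-1 motif 67 bases before it. Of 26 member genes with a promoter in the table (33 promoters), TGGGAA was in 2, TGANTCA in 3 and GGAATG in 4. Among all 35116 promoters of this length the shares were 24.0%, 7.71% and 14.0%. A match is a description of these letters only.

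The targeted genes were measured first. In H82, *NOTCH1* was 1.16 without and 4.86 with doxycycline (group means), in *REST* KO cells 1.32 and 9.55, and in STING KO cells 1.94 and 6.96, so the KO cells held more *NOTCH1* RNA with doxycycline than the intact cells. It was 1.20 and 8.06 in H524 and 0.387 and 7.99 in H69. In the H524 REST vector cells *REST* was 4.99 without and 9.01 with doxycycline. *REST* RNA in H82 *REST* KO cells was 4.11 and 5.26, against 4.64 and 6.31 in intact cells, and *TMEM173*, which encodes STING, was 0.394 and 1.61 in cells labelled STING KO against 0.0149 and 1.11 in intact cells. RNA level does not measure a protein lost by CRISPR-Cas9 cutting, so neither KO is checked by these values. In COR-L88 *NOTCH1* was 0.658 in DMSO, 2.35 in TAS1440 and 6.73 in TAS1440 plus GSI, and *TMEM173* in TAS1440 was 2.20 in intact cells and 1.07 in cells labelled STING KO. *HES1*, a classical Notch target gene, was 1.29 without and 5.47 with doxycycline in H82, 0.557 and 4.66 in H524 and 3.27 and 3.79 in H69 (group means). In COR-L88 *HES1* was 4.65 in DMSO, 4.52 in TAS1440 and 2.17 with GSI, and 5.27 in DMSO and 3.41 in TAS1440 in STING KO cells, so it was not higher with TAS1440 there. In KP1 *Hes1* was 0.787, 5.13 and 1.04 in DMSO, TAS1440 and TAS1440 plus GSI, and *Notch1* was 0.0477, 1.24 and 0.394.

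Marker lists moved with the same contrasts. The summed RPKM of 6 NE markers was 8657 to 22060 in H82 without and 24.6 to 49.0 with doxycycline, 11965 to 25454 and 592 to 1471 in H524, 987 to 2101 and 13.0 to 14.0 in H69, and 274 to 302 in DMSO and 70.9 to 105 in TAS1440 in COR-L88. All 4 lines thus held NE markers without N1ICD or TAS1440. The sum of 5 fibroblast markers, genes that mesenchymal tumor cells also use, was 1.01 to 49.4 and 1104 to 2142 in H82, 0.897 to 3.58 and 4227 to 6076 in H524, 0.75 to 3.91 and 13703 to 14416 in H69, and 1.16 to 2.22 and 3.47 to 7.73 in COR-L88. The sum of 5 mesenchymal or non-NE markers was 70.5 to 110.2 and 461 to 616 in H82, 18.6 to 46.7 and 378 to 535 in H524, 59.8 to 86.3 and 1174 to 1179 in H69, and 14.0 to 14.7 and 321 to 408 in COR-L88. Endothelial markers were at or near 0 in all human libraries, with a highest sum of 0.467 RPKM. The sum of 8 leukocyte markers was 1.11 to 2.11 without and 6.86 to 7.06 with doxycycline in H82, 5.79 to 16.2 and 17.7 to 23.0 in H524, 7.50 to 11.0 and 41.2 to 47.3 in H69, and 3.21 to 4.36 and 23.1 to 32.9 in COR-L88, higher in all 4. *PTPRC*, which encodes the pan-leukocyte protein CD45, had a group mean of 0.273 or less in the human groups. The part of these cell states in the integrin and laminin changes was not tested. Relative library sizes, read from the steps between low values, ran from 0.698 to 1.52 of the median in the human table and from 0.872 to 1.07 in KP1. Libraries are numbered 1 to 3 within a group. H524 N1ICD library 2 and H82 N1ICD library 1, both without doxycycline, lay farthest from the other libraries of their group, and without them the counts of members called with doxycycline stayed at 14 and 17.

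Of the 38 human members, 15 reached a group mean of at least 5 and 6 never reached a group mean of 1. Those 6 were *ITGAX*, *ITGAD* and *ITGAL*, leukocyte subunits that pair with *ITGB2*, together with *ITGA8*, *LAMB4* and *ITGB2-AS1*. *ITGAD* reached 1.60 and *ITGAL* 1.18 in the highest library, and the other 4 stayed below 1 in every library. *ITGB2* itself peaked at 1.59 and *ITGAM* at 1.75 in any library. *ITGAE*, which binds E-cadherin, was the leukocyte α subunit found in every library, between 0.797 and 3.28.

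**Figure D1:**
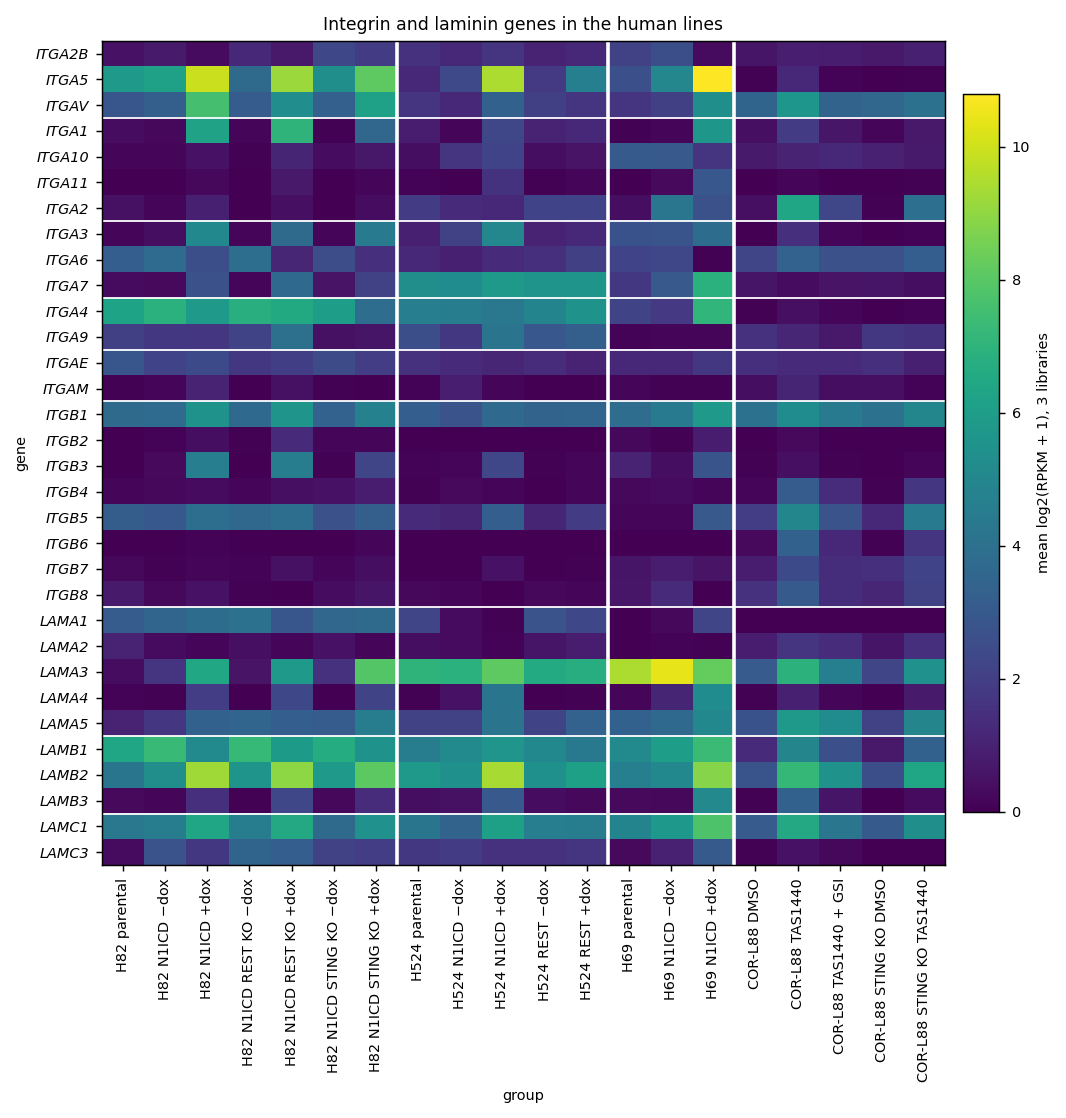
Mean log2(RPKM + 1) over 3 libraries of 32 human integrin and laminin genes (rows, ordered by role) in 20 groups (columns, ordered by cell line); color gives the mean, and white lines separate roles and lines. Columns of N1ICD with doxycycline and of TAS1440 without GSI are brighter than their controls for *ITGAV*, *LAMB2* and *LAMC1*. For *ITGAV* in COR-L88 STING KO cells the difference is slight and the libraries overlap. *ITGA4* and *LAMB1* were already bright in uninduced H82. Brightness is not comparable between rows.

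The majority of tested members were higher with doxycycline in all 3 N1ICD vector lines. In H82, 13 of 24 members tested rose with doxycycline and 4 fell, where 14.7% of all 13903 genes tested rose and 12.4% fell. In H524, 14 of 25 rose and 0 fell, against 11.4% and 7.19% of 13648 genes. In H69, 18 of 25 rose and 6 fell, against 21.4% and 20.4% of 13580 genes. The median log2 difference of the members was 1.48, 1.56 and 2.02, and that of all genes tested 0.00, -0.02 and 0.08. In H524 and H69, 5 and 8 members passed the filter only through the higher group, and of these 4 and 8 were called, so those had to differ. The 4 were *ITGA11*, *ITGB3*, *LAMA4* and *LAMB3*. The 8 were *ITGA1*, *ITGA11*, *ITGB3*, *ITGB5*, *ITGB8*, *LAMA1*, *LAMB3* and *LAMC3*. For *ITGB8* in H69, which fell, the higher group was the uninduced one. In H82 intact and STING KO cells the count was 0, but it misses genes carried by several induced H82 groups. *ITGA1* and *ITGB3* were below 1 in the uninduced intact H82 libraries, so their calls may rest on the filter too. The H524 count was 9 when either N1ICD library 2 or library 3 with doxycycline was left out, since a gene that reaches 1 only in these 3 libraries then leaves the test.

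TAS1440 in COR-L88, with no vector and no stated selection of adherent cells, raised 17 of 23 members tested and lowered 0, where 15.3% of 13134 genes rose and 7.46% fell. The members' median log2 difference was 1.55 and that of all genes 0.01. There, 5 members passed the filter only through the higher group, and 3 of them, *ITGA1*, *ITGA5* and *LAMB3*, were called. Here too the count misses genes carried by several groups with TAS1440. These 4 comparisons share no library. Of 15 members tested in all 4, 7 rose in all 4, namely *ITGA1*, *ITGA5*, *ITGAV*, *LAMA5*, *LAMB2*, *LAMB3* and *LAMC1*, whereas 289 of 11301 genes (2.56%) did so. Of the 7, *ITGA1*, *ITGA5* and *LAMB3* passed the filter in at least 1 of the 4 comparisons only through the higher group, so that their calls there were fixed in part by the filter, and 4 did not depend on it. None of the 15 fell in all 4, where only 68 of the 11301 genes did.

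**Figure D2:**
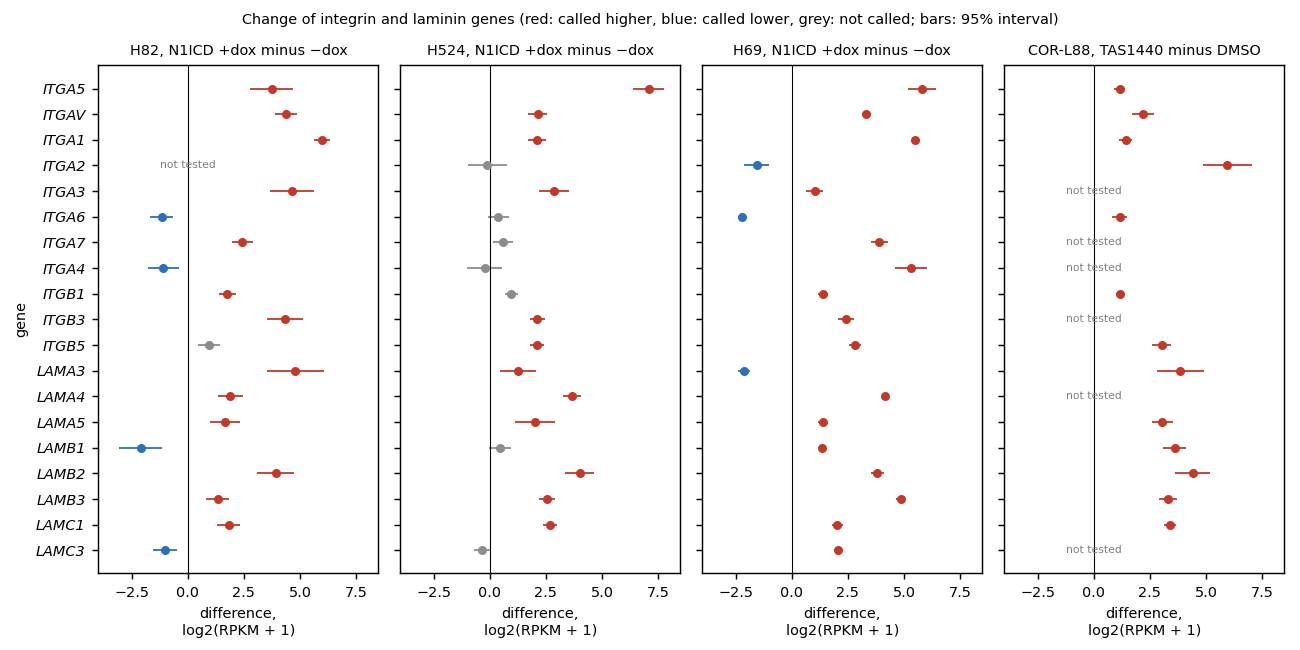
Log2 difference with its 95% interval for 19 integrin and laminin genes called in at least 2 of 4 comparisons: H82, H524 and H69 N1ICD with minus without doxycycline, and COR-L88 TAS1440 minus DMSO. Red marks genes called higher, blue lower, and grey not called; *LAMB2* lies between 3.80 and 4.40 in all 4, while *LAMA3* is 4.80 in H82 and -2.14 in H69.

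The RGD-binding α subunits *ITGA5*, the fibronectin receptor chain, and *ITGAV*, the vitronectin receptor chain, rose in every line. *ITGA5* in H82 was 5.09, 6.77 and 6.72 without and 10.15, 9.44 and 10.22 with doxycycline, a log2 difference of 3.74 (SE 0.46, adjusted *P* = 2.5e-06). In H524 it was 2.41, 3.02 and 1.74 without and 9.41, 9.51 and 9.49 with (7.08, SE 0.33, adjusted *P* = 1.4e-09), and in H69 5.13, 4.62 and 5.23 without and 10.82, 10.78 and 10.77 with (5.80, SE 0.27, adjusted *P* = 1.3e-07). The induced libraries of the 3 lines lay between 9.41 and 10.82 although the uninduced ones lay between 1.74 and 6.77. In COR-L88 *ITGA5* stayed low: 0.00, 0.22 and 0.00 in DMSO and 1.18, 1.22 and 1.26 in TAS1440 (1.15, SE 0.12, adjusted *P* = 2.3e-06). That difference was 0.96 after quantile normalization and then no longer called.

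*ITGAV* in H82 was 3.60, 2.96 and 3.18 without and 7.57, 7.94 and 7.37 with doxycycline (4.38, SE 0.24, adjusted *P* = 9.1e-11). In H524 it was 1.48, 1.03 and 1.17 against 3.22, 3.67 and 3.17 (2.13, SE 0.20, adjusted *P* = 1.5e-06), and in H69 1.99, 2.09 and 2.07 against 5.30, 5.40 and 5.40 (3.32, SE 0.06, adjusted *P* = 4.4e-10). COR-L88 held 3.56, 3.36 and 3.55 in DMSO and 6.13, 5.38 and 5.55 in TAS1440 (2.20, SE 0.22, adjusted *P* = 2.3e-06). No induced or TAS1440 library overlapped its controls. *ITGA2B*, the platelet fibrinogen receptor chain, fell in H69 from 2.46, 2.67 and 2.60 to 0.47, 0.24 and 0.29 (-2.24, SE 0.09, adjusted *P* = 3.6e-08).

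Among collagen-binding α subunits, *ITGA1* went from near 0 to high levels in H82 and H69. It was 0.17, 0.32 and 0.21 without and 6.16, 6.32 and 6.23 with doxycycline in H82 (6.00, SE 0.17, adjusted *P* = 2.8e-14), and 0.24, 0.16 and 0.19 against 5.68, 5.66 and 5.79 in H69 (5.51, SE 0.06, adjusted *P* = 3.8e-11). H524 rose less, from 0.21, 0.25 and 0.14 to 2.12, 2.62 and 2.15 (2.10, SE 0.18, adjusted *P* = 7.9e-07), and COR-L88 from 0.42, 0.47 and 0.48 to 1.88, 2.02 and 1.70 (1.41, SE 0.13, adjusted *P* = 9.9e-07). The induced H524 libraries thus stayed below every induced library of the other vector lines. *ITGA2*, a collagen receptor chain of epithelial cells and platelets, went the opposite ways in H69 and COR-L88. It fell in H69 from 3.68, 4.59 and 4.50 to 2.77, 2.47 and 2.84 (-1.56, SE 0.24, adjusted *P* = 0.0003) and rose in COR-L88 from 0.47, 0.56 and 0.31 to 7.13, 6.72 and 5.36 (5.95, SE 0.50, adjusted *P* = 4.3e-07). The uninduced H69 vector cells already stood far above the parental cells, where *ITGA2* was 0.67, 0.21 and 0.28. *ITGA11*, a fibroblast collagen receptor chain, rose in H524 (1.56) and H69 (2.67), and *ITGA10* fell in H69 (-1.35). *ITGA11* in H524 and H69 and *ITGA1* in H69 and COR-L88 passed the filter only through the higher group, which fixed these calls in part.

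The laminin-binding α subunits split. *ITGA3* in H82 was 0.34, 0.37 and 0.55 without and 5.82, 4.17 and 5.18 with doxycycline (4.64, SE 0.46, adjusted *P* = 2.1e-07), and in H524 2.82, 2.38 and 1.22 against 4.98, 5.05 and 4.92 (2.84, SE 0.31, adjusted *P* = 8.2e-06). In H69 the rise was 1.01 (SE 0.17, adjusted *P* = 0.00044), at the fold threshold: it was between 0.82 and 1.21 with 1 library left out, and below 1 without uninduced library 1 or induced library 1. *ITGA7*, best known from muscle, rose in H82 from 0.13, 0.28 and 0.35 to 2.61, 2.27 and 3.13 (2.41, SE 0.22, adjusted *P* = 7.4e-08) and in H69 from 2.62, 3.28 and 3.08 to 6.99, 6.80 and 6.90 (3.90, SE 0.16, adjusted *P* = 5.8e-08). In H524 it was high already without doxycycline, at 5.14, 5.60 and 4.95, and its difference of 0.59 was not called. *ITGA6*, the partner of *ITGB4* in hemidesmosomes, fell in H82 from 3.26, 4.04 and 3.97 to 2.99, 2.41 and 2.35 (-1.17, SE 0.24, adjusted *P* = 0.00062). It fell in H69 from 2.43, 2.22 and 2.26 to 0.08, 0.05 and 0.05 (-2.24, SE 0.08, adjusted *P* = 1.6e-08) but rose in COR-L88 from 2.11, 2.42 and 2.24 to 3.71, 3.49 and 3.03 (1.15, SE 0.15, adjusted *P* = 2.3e-05), a difference of 0.99 after quantile normalization and then no longer called.

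*ITGA4*, the chain that binds VCAM1 and fibronectin, moved in opposite directions in H82 and H69. In H82 it fell from 6.90, 6.87 and 6.84 to 5.69, 5.96 and 5.68 (-1.10, SE 0.33, adjusted *P* = 0.0098), a change of -0.96 after quantile normalization and then no longer called. H69 libraries rose from 2.59, 1.50 and 1.26 to 7.07, 7.05 and 7.18 (5.32, SE 0.30, adjusted *P* = 4.3e-07). H524 was 5.24, 3.55 and 4.89 without and 4.45, 4.53 and 3.99 with doxycycline, which overlap. Its relative *ITGA9* rose in H524 from 0.88, 1.92 and 2.45 to 3.91, 4.28 and 4.32 (2.42, SE 0.34, adjusted *P* = 9.1e-05).

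Of the β subunits, *ITGB1*, the common partner of most of these α chains, rose in H82, H69 and COR-L88. It went from 3.49, 3.92 and 3.88 to 5.64, 5.64 and 5.29 in H82 (1.76, SE 0.17, adjusted *P* = 1.9e-07), from 4.17, 4.53 and 4.53 to 5.79, 5.80 and 5.81 in H69 (1.39, SE 0.10, adjusted *P* = 1.7e-06) and from 4.07, 4.03 and 4.11 to 5.24, 5.23 and 5.29 in COR-L88 (1.18, SE 0.10, adjusted *P* = 2.9e-07). In H524 it went from 2.72, 2.81 and 2.69 to 3.67, 3.68 and 3.75, a difference of 0.96 (SE 0.13, adjusted *P* = 6e-05) that missed the fold threshold and was 1.06 with a pseudocount of 0.1. *ITGB3*, the partner of *ITGAV* and *ITGA2B*, rose in the 3 vector lines. It was 0.00, 0.50 and 0.38 without and 4.99, 4.44 and 4.42 with doxycycline in H82 (4.32, SE 0.38, adjusted *P* = 4.2e-08), and its differences in H524 and H69 were 2.11 and 2.41. In H524 and H69 *ITGB3* passed the filter only through the induced libraries, as did *ITGB5* in H69, which fixed these calls in part. *ITGB5*, another partner of *ITGAV*, rose in H524 (2.10), H69 (2.82) and COR-L88, where it went from 2.12, 1.82 and 1.92 to 4.72, 5.14 and 5.05 (3.02, SE 0.21, adjusted *P* = 7.1e-08), while the H82 difference of 0.94 missed the fold threshold.

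COR-L88 with TAS1440 also raised *ITGB4*, *ITGB6* and *ITGB7*, which did not enter the test in any vector line because they reached 1 there in fewer than 3 libraries. *ITGB4*, the hemidesmosome subunit, went from 0.18, 0.15 and 0.08 to 2.96, 3.62 and 2.90 (3.02, SE 0.20, adjusted *P* = 4.5e-08). *ITGB6*, which with *ITGAV* activates TGF-β, went from 0.28, 0.16 and 0.32 to 4.09, 2.85 and 3.08 (3.09, SE 0.26, adjusted *P* = 4.3e-07). Every DMSO library of both was below every TAS1440 library. *ITGB7*, a leukocyte subunit, rose by 1.55. *ITGB8*, a further TGF-β-activating partner of *ITGAV*, rose by 1.55 in COR-L88, whereas *ITGB8* fell in H69 from 1.48, 1.25 and 1.16 to 0.01, 0.01 and 0.02. In H69 *ITGB8* passed the filter only through the uninduced libraries, so its call there was fixed in part by the filter. A difference between COR-L88 and the vector lines was not tested for these genes, since treatment and line differ together.

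**Figure D3:**
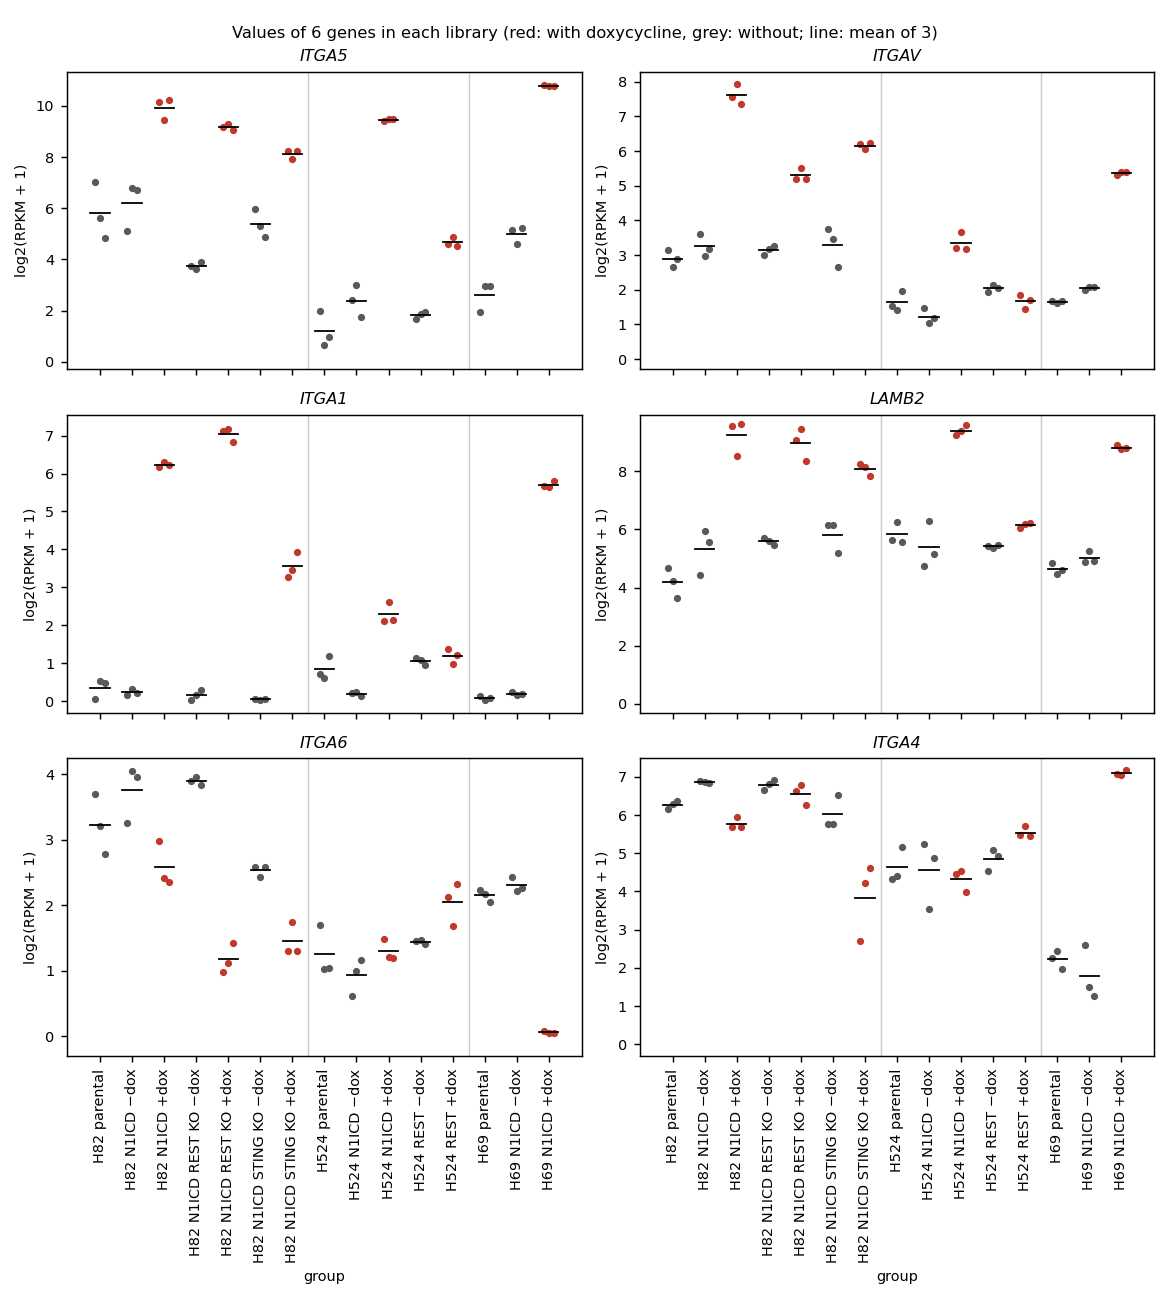
Log2(RPKM + 1) of *ITGA5*, *ITGAV*, *ITGA1*, *LAMB2*, *ITGA6* and *ITGA4* in each library of the 15 groups of H82, H524 and H69, with doxycycline in red and without in grey; the line marks the mean of 3 libraries. *ITGA5* with N1ICD lies between 7.93 and 10.82 in all induced groups, and *ITGA4* is lower than its control in H82 but higher in H69.

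The laminin trimer genes *LAMB2* and *LAMC1* rose in all 4 lines, and with *LAMA5* they encode a main laminin of mature basement membranes. *LAMB2* went from 4.44, 5.94 and 5.58 to 9.56, 8.53 and 9.63 in H82 (3.92, SE 0.40, adjusted *P* = 2.4e-07) and from 4.74, 6.29 and 5.17 to 9.23, 9.38 and 9.58 in H524 (4.00, SE 0.30, adjusted *P* = 2.3e-07). It went from 4.87, 5.25 and 4.93 to 8.89, 8.77 and 8.79 in H69 (3.80, SE 0.13, adjusted *P* = 1.4e-08) and from 3.17, 2.54 and 2.68 to 6.67, 7.36 and 7.56 in COR-L88 (4.40, SE 0.37, adjusted *P* = 3.8e-07). The lowest induced library of each line was over 2 log2 units above the highest uninduced one. *LAMC1*, the γ chain of most laminins, rose by 1.81 (SE 0.25) in H82, 2.68 (SE 0.15) in H524, 2.02 (SE 0.11) in H69 and 3.40 (SE 0.12, adjusted *P* = 3.9e-10) in COR-L88. *LAMA5* rose by 1.64, 2.00, 1.36 and 3.05. Its COR-L88 libraries were 2.57, 2.92 and 2.72 in DMSO and 5.50, 5.94 and 5.91 in TAS1440.

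*LAMA3* and *LAMB3*, chains of the laminin that anchors epithelia, did not move together in the vector lines. *LAMB3* rose in all 3, most in H69, from 0.17, 0.38 and 0.17 to 5.21, 5.07 and 4.98 (4.85, SE 0.09, adjusted *P* = 6.5e-10). *LAMA3* rose in H82 from 0.92, 1.32 and 2.61 to 6.79, 5.86 and 6.58 (4.80, SE 0.60, adjusted *P* = 3.3e-06) but fell in H69 from 10.18, 10.59 and 10.34 to 8.29, 8.15 and 8.25 (-2.14, SE 0.12, adjusted *P* = 3.8e-07). In H524 *LAMA3* was 6.09, 8.06 and 6.48 without and 7.86, 8.12 and 8.41 with doxycycline, which overlap. That call (1.25, SE 0.38, adjusted *P* = 0.021) was lost in 4 of the leave-one-out fits, with adjusted *P* up to 0.0876, and with only the compared groups (adjusted *P* = 0.107). In COR-L88 both chains rose with TAS1440, *LAMA3* from 3.05, 3.54 and 2.66 to 6.62, 7.78 and 6.41 (3.85, SE 0.48, adjusted *P* = 1.5e-05) and *LAMB3* from 0.16, 0.00 and 0.04 to 3.60, 3.58 and 2.93 (3.30, SE 0.19, adjusted *P* = 1.7e-08). *LAMB3* passed the filter only through the higher group in H524, H69 and COR-L88, so its calls there were fixed in part.

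*LAMA4*, the α chain of endothelial and mesenchymal laminins, rose in each vector line. It went from 0.16, 0.05 and 0.03 to 2.01, 1.62 and 2.27 in H82, from 0.66, 0.25 and 0.70 to 3.99, 4.71 and 3.87 in H524 (3.66, SE 0.19, adjusted *P* = 4.8e-09) and from 1.03, 1.16 and 1.11 to 5.26, 5.25 and 5.26 in H69 (4.16, SE 0.06, adjusted *P* = 1.9e-10). *LAMB1*, the β chain that *LAMB2* replaces in many basement membranes, moved in opposite directions between lines. In H82 it fell from 5.69, 8.26 and 7.92 to 5.40, 4.46 and 5.68 (-2.11, SE 0.46, adjusted *P* = 0.00096), while it rose by 1.35 in H69 and by 3.60 in COR-L88. *LAMC3* fell in H82 by 1.03 on the log2 scale, a change smaller than 1 in 3 leave-one-out fits, and rose in H69 from 1.15, 0.91 and 0.92 to 3.13, 2.97 and 3.07 (2.06, SE 0.09, adjusted *P* = 8.6e-08). *LAMA1*, the α chain of embryonic laminin, rose only in H69 among these 4 comparisons (1.99), and in COR-L88 it was listed at 0 in all 15 libraries. *LAMA4* in H524 and *LAMC3* and *LAMA1* in H69 passed the filter only through the induced libraries, so these calls were fixed in part by the filter.

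The difference between lines was then tested itself, as the difference of the doxycycline responses in 1 fit over all 60 human libraries. Of 32 members tested, H69 exceeded H82 in 10 and fell below it in 9 (background 21.9% and 21.2% of 15888 genes), H69 exceeded H524 in 8 and fell below it in 9 (17.8% and 19%), and H82 exceeded H524 in 7 and fell below it in 8 (9.59% and 10.1%). *ITGA4* was the member with the largest positive difference of H69 over H82 (6.41, SE 0.44, adjusted *P* = 1.2e-16), and *LAMA3* the one with the largest negative (-6.94, SE 0.72, adjusted *P* = 3.1e-11). *ITGA1* responded more in H82 than in H524 (3.90, SE 0.20, adjusted *P* = 5.2e-20) and more in H69 than in H524 (3.42, SE 0.20, adjusted *P* = 1e-18). *ITGA5* responded less in H82 than in H524 (-3.34), where the uninduced level was lower. The *LAMB2* responses differed by -0.12, -0.20 and -0.08 in the 3 pairs, none called.

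With *REST* KO in H82, 15 of 24 members were still higher and 3 lower with doxycycline, against 16.2% and 13.7% of all genes, with a median of 1.82 against -0.01. Of the 15, 2 (*ITGA10* and *ITGB2*) passed the filter only through the induced *REST* KO group, so their calls were fixed in part by the filter. Members carried through the filter by several induced H82 groups are not in that count. *ITGA1* went from 0.05, 0.16 and 0.29 to 7.12, 7.18 and 6.82 (6.87, SE 0.17, adjusted *P* = 3.6e-15) and *ITGA5* from 3.74, 3.62 and 3.88 to 9.18, 9.30 and 9.07 (5.44, SE 0.46, adjusted *P* = 1.5e-08). *LAMB2* reached 9.08, 9.47 and 8.35. *ITGB3* was listed at 0 in all 3 uninduced *REST* KO libraries and was 5.32, 5.14 and 3.30 with doxycycline. *LAMA1* (-1.13) and *LAMB1* (-1.36) fell, with adjusted *P* up to 0.118 and 0.0659 when 1 library was left out.

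With doxycycline in both, *REST* KO cells exceeded intact cells in 3 members and fell below them in 3 (9.44% and 8.21% of all genes). *ITGA9* was 2.06, 1.40 and 1.72 in intact and 4.39, 4.60 and 2.91 in *REST* KO cells (2.24, SE 0.35, adjusted *P* = 7.5e-05), and *LAMC3* was 1.49 and *ITGA7* 1.01 higher. *ITGAV* was 7.57, 7.94 and 7.37 against 5.20, 5.51 and 5.20 (-2.32, SE 0.24, adjusted *P* = 7.2e-07), and *ITGA6* was -1.41 and *ITGA3* -1.33 lower, the last with overlapping libraries. *ITGA7* was below 1 in 4 leave-one-out fits. The responses themselves differed in 5 members, 2 larger and 3 smaller in *REST* KO (7.46% and 5.46%): *ITGA9* 1.77, *ITGA7* 1.14, *ITGA6* -1.55, *LAMA5* -1.96 and *ITGAV* -2.22 (SE 0.34, adjusted *P* = 0.00016). That count was 8 without uninduced intact library 1 and 3 without induced intact library 2 or induced *REST* KO library 1 or 2. *NOTCH1* RNA with doxycycline was 4.69 log2 units higher in *REST* KO than in intact cells, the NE marker sum was 118 to 219 RPKM against 24.6 to 49.0, and their part in these differences was not tested.

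With STING KO in H82, 13 of 24 members were higher and 2 lower with doxycycline, against 12.2% and 8.07%, with a median of 1.22 against 0.01. *LAMA3* went from 2.35, 2.22 and 0.00 to 8.31, 8.12 and 7.32 (6.39, SE 0.60, adjusted *P* = 1.4e-07), while *ITGA4* fell from 5.76, 5.77 and 6.51 to 2.71, 4.21 and 4.60 (-2.17, SE 0.33, adjusted *P* = 4e-05). With doxycycline in both, STING KO cells exceeded intact cells in 2 members and fell below them in 8 (7.72% and 8.75%). The 8 were *ITGA1* (6.16, 6.32 and 6.23 intact against 3.27, 3.46 and 3.94; -2.68, SE 0.17, adjusted *P* = 9.9e-09), *ITGB3* (-2.38), *ITGA4* (-1.93), *ITGA5* (-1.80), *ITGAV* (-1.46), *LAMB2* (-1.16), *ITGA6* (-1.13) and *ITGA9* (-1.11). All 5 that had risen in intact cells remained above their own uninduced libraries. *ITGA2B* (1.57) and *LAMA5* (1.21, adjusted *P* up to 0.0529 with 1 library left out) were higher. The response was smaller in STING KO for 3 members and larger for 0 (3.21% and 3.91%): *ITGA1* -2.50 (SE 0.24, adjusted *P* = 3.3e-06), *ITGB3* -2.14 and *ITGAV* -1.52. It was 1 member with a pseudocount of 0.1, and 2 to 5 members with 1 library left out, 5 without uninduced intact library 1 and 2 without induced STING KO library 2. *NOTCH1* RNA was 2.10 log2 units higher in the STING KO cells with doxycycline. Their mesenchymal or non-NE marker sum was 296 to 356 RPKM against 461 to 616 in induced intact cells. The fibroblast marker sum was 787 to 1233 against 1104 to 2142, and the NE marker sum 10.1 to 114 against 24.6 to 49.0. The part of *NOTCH1* and of these cell states in the differences was not tested.

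Few members changed with the REST vector in H524. *NOTCH1* RNA also rose there, from a mean of 0.489 without to 1.87 with doxycycline (1.38, limma adjusted *P* = 0.014). The NE marker sum was 14986.6 to 28409.5 RPKM without and 24515.9 to 39296.2 RPKM with doxycycline. The part of either in these values was not tested. With the REST vector, 1 of 25 members rose and 0 fell (1.28% and 0.586% of all genes). This was *ITGA5*, at 1.66, 1.86 and 1.96 without and 4.61, 4.88 and 4.53 with doxycycline (2.85, SE 0.33, adjusted *P* = 0.00062). *LAMA5* differed by 1.17 (adjusted *P* = 0.15) and *ITGB5* by 0.75 (adjusted *P* = 0.017). With a pseudocount of 0.1 the count was 2. *LAMB2* was 5.42, 5.38 and 5.47 without and 6.06, 6.18 and 6.21 with the REST vector induced. Induced N1ICD cells exceeded induced REST cells in 14 members and fell below them in 2 (12.3% and 11.5%), where 5 of the members passed the filter only through the higher group and all 5 were called. *ITGA4* (-1.21) and *LAMA1* (-2.27, SE 0.19, adjusted *P* = 6.6e-07) were the lower ones, the first with an adjusted *P* of 0.0646 without N1ICD library 3 with doxycycline. *LAMA1* was also low in N1ICD vector cells without doxycycline, as given with the uninduced cells.

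The response to N1ICD exceeded that to REST in 13 members and was smaller in 0 (9.88% and 5.68%). These included *ITGA5* (4.23, SE 0.46, adjusted *P* = 1.9e-05), *LAMA4* (3.60, SE 0.27, adjusted *P* = 5.1e-07), *LAMB2* (3.27), *LAMC1* (2.72), *LAMB3* (2.71), *ITGA3* (2.65) and *ITGAV* (2.50). Among those named, *LAMA4* and *LAMB3* passed the filter only through the induced N1ICD libraries, so their larger response was fixed in part by the filter. The count was 8 without induced N1ICD library 2 or 3, again in part because genes leave the test. The REST and N1ICD vectors are separate transductions, and no REST libraries from another line were analysed here.

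Uninduced vector cells were compared with parental cells, as a check on the vector itself. In H82, 1 member was higher and 0 lower (3.75% and 2.66%): *LAMC3*, at 0.43, 0.28 and 0.27 in parental and 2.27, 3.13 and 2.88 in vector cells (2.44, SE 0.25, adjusted *P* = 1.9e-06), and the count was 4 without N1ICD library 1. In H524 N1ICD cells 2 were higher and 1 lower (4.94% and 7.16%): *ITGA5* 1.19, *ITGA3* 1.19, both with overlapping libraries, and *LAMA1*, which went from 1.95, 2.62 and 2.24 to 0.58, 0.09 and 0.23 (-1.97, SE 0.19, adjusted *P* = 2.3e-05). That count was 1 with only the compared groups, 6 with a pseudocount of 0.1, and 5 without N1ICD library 3. In the H524 REST vector cells the limma fit called 0 higher and 0 lower (0.022% and 0.242%), with 2 members at an unadjusted *P* below 0.05. In H69, 3 were higher and 0 lower (3.02% and 2.25%). They were *ITGA2* (3.87, SE 0.24, adjusted *P* = 1.5e-05), *ITGA5* (1.94, 2.95 and 2.98 parental against 5.13, 4.62 and 5.23; 2.37, SE 0.27, adjusted *P* = 0.00043) and *ITGA7* (1.24). *ITGA5* and *ITGA7* thus stood above parental cells before doxycycline and rose further with it, whereas *ITGA2* stood above parental cells and fell with it. The H69 count was 8 with a pseudocount of 0.1 and 5 without N1ICD library 1.

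In COR-L88, adding GSI to TAS1440 lowered most of the drug-induced members. TAS1440 exceeded TAS1440 plus GSI in 14 of 23 members and fell below it in 0 (10.4% and 4.32%), with a median of 1.22 against 0.04. There, 5 members passed the filter only through the higher group and 3 of them, *ITGA1*, *ITGA5* and *LAMB3*, were called. *ITGA2* was 7.13, 6.72 and 5.36 against 2.49, 2.17 and 2.20 (4.12, SE 0.50, adjusted *P* = 2.7e-05), *LAMB3* was 3.60, 3.58 and 2.93 against 0.74, 0.64 and 0.40 (2.77, SE 0.19, adjusted *P* = 6.5e-07) and *LAMA3* was 6.62, 7.78 and 6.41 against 4.35, 5.34 and 4.30 (2.27, SE 0.48, adjusted *P* = 0.0018). *ITGAV* with GSI was 3.48, 3.39 and 3.43, within the range of its DMSO libraries, and *ITGB8* with GSI was 1.51, 1.39 and 1.31, overlapping its DMSO libraries at 1.60, 1.62 and 1.35. *LAMA5* was an exception. It stayed at 5.44, 5.32 and 5.02 with GSI, and its difference of 0.52 (SE 0.22, adjusted *P* = 0.067) was not called.

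TAS1440 plus GSI still exceeded DMSO in 7 members and fell below it in 0 (5.62% and 3.4%), and 5 of the 7 were laminin chains. *LAMB2* was 6.07, 5.36 and 5.12 with GSI (2.72, SE 0.37, adjusted *P* = 9.1e-05), and *LAMA5* differed by 2.53 (SE 0.22, adjusted *P* = 1.9e-06), *LAMA3* by 1.58, *LAMB1* by 1.33, *ITGB4* by 1.22 and *LAMC1* by 1.14. The seventh, *ITGA2* (1.84, adjusted *P* = 0.016), had an adjusted *P* of 0.0554 at most with 1 library left out.

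STING KO cells of COR-L88 responded to TAS1440 with 9 of 23 members higher and 0 lower (10.2% and 5.79%), with a median of 0.84 against -0.02. *LAMB2* went from 2.11, 3.56 and 2.12 to 6.18, 6.44 and 6.40 (3.75), and *ITGB5* from 1.05, 1.62 and 1.09 to 4.13, 4.98 and 4.38 (3.24). *ITGA2* went from 0.11, 0.06 and 0.00 to 3.07, 5.38 and 3.42 (3.90, SE 0.50, adjusted *P* = 3.1e-05). The response was smaller than in intact cells for 6 members and larger for 0 (3.31% and 0.921%). *LAMB3* was listed at 0 in all 3 STING KO DMSO libraries and was 0.11, 0.70 and 0.13 in TAS1440, against 3.60, 3.58 and 2.93 in intact cells (difference of the responses -2.99, SE 0.27, adjusted *P* = 7.4e-05, a size that rests on the pseudocount of 1). *ITGAV* was 3.78, 3.37 and 3.50 in DMSO and 3.85, 4.60 and 3.69 in TAS1440 (-1.69, SE 0.32, adjusted *P* = 0.0082). The other 4 were *ITGB6* (-1.52), *ITGB4* (-1.38), *ITGA5* (-1.09) and *LAMC1* (-1.06). Of the 6, *LAMB3* and *ITGA5* passed the filter only through the intact TAS1440 libraries, so their smaller response was fixed in part by the filter. The smaller response of *ITGA2* (-2.05) had an adjusted *P* of 0.091. The count was 3 with a pseudocount of 0.1 and 9 without STING KO TAS1440 library 2. *NOTCH1* in STING KO cells was 1.00 in DMSO and 4.11 in TAS1440, and the NE marker sum in TAS1440 was 84.6 to 90.9 RPKM against 70.9 to 105 in intact cells.

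**Figure D4:**
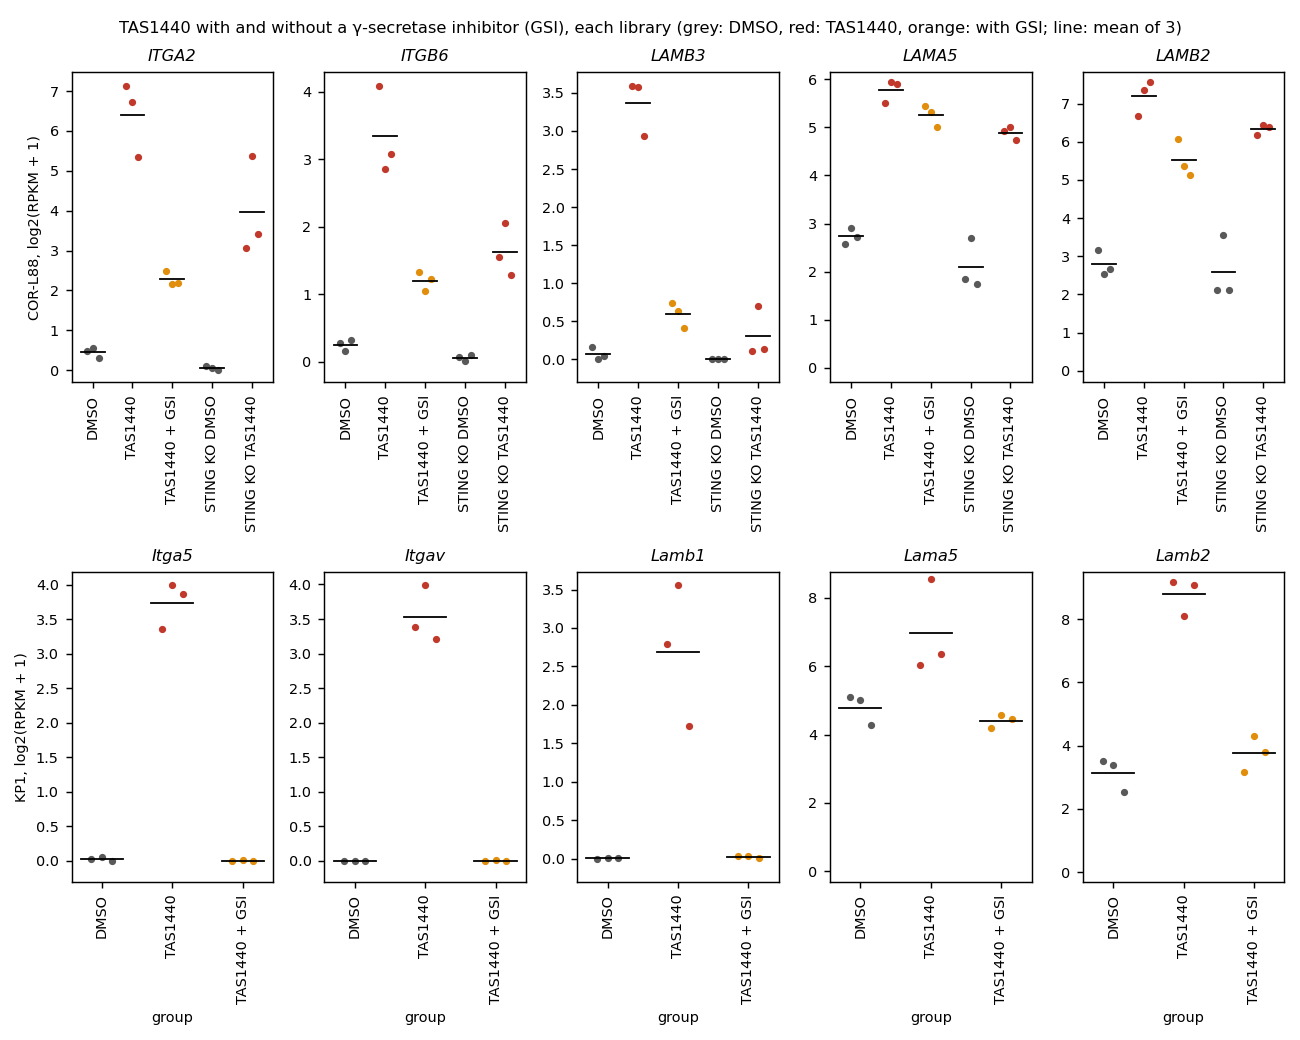
Log2(RPKM + 1) in each library, with the line at the mean of 3: *ITGA2*, *ITGB6*, *LAMB3*, *LAMA5* and *LAMB2* in the 5 COR-L88 groups (upper row) and *Itga5*, *Itgav*, *Lamb1*, *Lama5* and *Lamb2* in the 3 KP1 groups (lower row), with DMSO in grey, TAS1440 in red and TAS1440 plus GSI in orange. In COR-L88 *LAMA5* and *LAMB2* stay above DMSO with GSI, while in KP1 *Itga5* and *Itgav* are at or near 0 with GSI; the rows come from tables normalized separately.

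KP1 expressed fewer members: 19 of 34 were below 1 in every library, and 13 were tested. TAS1440 raised 9 and lowered 0, where 9.09% of 8260 genes rose and 9.7% fell, with a median of 2.19 against 0.02. *Lamb2* went from 3.52, 3.40 and 2.52 to 9.18, 8.11 and 9.07 (5.64, SE 0.40, adjusted *P* = 9.2e-06) and *Itga5* from 0.03, 0.05 and 0.00 to 3.36, 3.99 and 3.87 (3.71, SE 0.16, adjusted *P* = 7.9e-07). *Itgav* was listed at 0 in all 3 DMSO libraries and was 3.39, 3.99 and 3.21 in TAS1440. *Itga5* and *Itgav* thus went from at or near 0 to above 3 in all 3 libraries. *Lamb1* went from 0.00, 0.01 and 0.00 to 2.79, 3.56 and 1.73, *Lamc1* from 2.53, 2.54 and 2.57 to 5.69, 5.88 and 5.14, and *Itgb1* from 2.61, 2.65 and 2.52 to 4.63, 5.43 and 4.63. *Itgb5* rose by 1.57, *Itga7* by 1.45 and *Lama5* by 2.19 (SE 0.57, adjusted *P* = 0.015).

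Of these members, 6 passed the filter only through their higher group: 5 through the TAS1440 libraries, all called, and *Lamb3* through DMSO, not called. The 5 were *Itga5*, *Itga7*, *Itgav*, *Itgb5* and *Lamb1*, so their calls were fixed in part by the filter. The count of 9 fell to 4 without TAS1440 library 2 or 3 and to 6 without library 1. Of the 7 genes that rose in all 4 human comparisons, *Lama5*, *Lamb2* and *Lamc1* rose in KP1 without help of the filter. *Itga5* and *Itgav* also rose but entered the test only through the TAS1440 libraries. *Itga1* was not tested and *Lamb3* differed by -0.88 (SE 0.45, adjusted *P* = 0.16). *Lama3* stayed below 1 in every KP1 library.

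No KP1 member passed the test when GSI was added. In TAS1440 plus GSI against DMSO, limma called 0 higher and 0 lower (0.46% and 0.751% of all genes), with 0 at an unadjusted *P* below 0.05, and the largest difference was 0.62 (SE 0.40, adjusted *P* = 0.65) for *Lamb2*. TAS1440 exceeded TAS1440 plus GSI in 10 members and fell below it in 0 (8.5% and 8%). The same 5 members passed the filter only through the TAS1440 group and all 5 were called. *Lamb2* was 5.02 higher (SE 0.40, adjusted *P* = 2.1e-05) and *Itga5*, at 0.00, 0.01 and 0.00 with GSI, was 3.74 higher (SE 0.16, adjusted *P* = 9.9e-07). The tenth was *Itga3* (1.24). The count was 4 without TAS1440 library 2. In KP1 the NE marker sum was 224 to 330 RPKM in DMSO, 0.472 to 33.6 in TAS1440 and 300.2 to 331 with GSI. The fibroblast marker sum was 0.0366 to 0.0782, 14.8 to 287 and 0.114 to 0.585, and that of 5 mesenchymal or non-NE markers was 0.703 to 1.82, 1882 to 2627 and 3.57 to 21.7, and their part in the members' changes was not tested.

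Other genes of cell-matrix adhesion were counted from 3 lists chosen by function. Of 33 genes for proteins that link integrins to actin, 19 of 30 tested rose and 0 fell in H82, 16 of 29 and 0 in H524, 21 of 29 and 1 in H69, and 14 of 31 and 1 in COR-L88 with TAS1440, where 14.7%, 11.4%, 21.4% and 15.3% of all genes tested rose in these 4 comparisons and 12.4%, 7.19%, 20.4% and 7.46% fell. The same shares stand behind the lists that follow. Their median log2 differences were 1.74, 1.09, 1.86 and 0.67, against medians of all genes between -0.02 and 0.08. The genes that fell, named after their values were seen, were *PTK2B* in H69 (-1.50) and *PARVG* in COR-L88 (-2.44). *VCL* (vinculin) rose by 2.38, 2.32, 3.58 and 3.02, *ZYX* (zyxin) by 2.79, 2.54, 2.80 and 3.84, and *CAV1* (caveolin) by 3.26, 4.94, 6.83 and 2.84. Among the genes not called in any of the 4, *PTK2*, the focal adhesion kinase, differed by -0.76, -0.06, -0.01 and 0.19 and *PXN* (paxillin) by -0.46, 0.44, -0.36 and 0.56. In KP1 with TAS1440, 12 of 19 rose and 0 fell (9.09% and 9.7% of all genes), and with GSI against DMSO 0 were called.

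Of 19 other integrin ligand genes, 8 of 13 tested rose in H82, 12 of 15 in H524, 10 of 13 in H69 and 12 of 12 in COR-L88, and 1, 0, 1 and 0 fell, with medians of 3.38, 2.58, 2.24 and 3.57. *FN1* (fibronectin, the ligand of *ITGA5*) rose by 2.94, 8.96, 7.60 and 4.20, and *THBS1* (thrombospondin) by 6.33, 3.92, 6.00 and 5.71. In KP1 *Fn1* rose by 7.20. The ligand genes that fell, again named after their values were seen, were *EDIL3* in H82 (-1.65) and *CDH1* in H69 (-1.84). Of 20 basement membrane and other laminin-binding genes, 15 of 20 tested rose in H82, 12 of 18 in H524, 11 of 20 in H69 and 12 of 18 in COR-L88, and 1, 0, 0 and 1 fell, with medians of 2.27, 2.14, 1.83 and 2.36. The 2 that fell were *RPSA* in H82 (-1.16), a ribosomal protein also named as a laminin receptor, and *DDR2* in COR-L88 (-1.09). *COL4A1*, a collagen IV chain, rose by 4.03, 5.66, 9.70 and 3.36 and *HSPG2* (perlecan) by 2.22, 1.98, 4.27 and 2.35. *NID1* (nidogen, which binds laminin γ1) rose by 6.11, 2.80 and 3.66 in H82, H524 and COR-L88, and its difference of 0.94 in H69 was not called. With the REST vector in H524 the 3 lists held 1, 0 and 3 genes called higher and 0 called lower. The same list genes were tested as with N1ICD in H524, and 1.28% of all genes tested rose and 0.586% fell.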

How the data were processed

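RNA-Seq libraries were made with a stranded mRNA kit. The authors trimmed reads with Cutadapt, aligned them with STAR and quantified genes with RSEM, and their notes list hg19 and mm10 without versions or a strand setting. The deposited values are log2(RPKM + 1) after TMM scaling in edgeR, in a human table of 60 libraries and a separately normalized KP1 table of 9. Expected counts were not among the files used here, so no count test was run. Depth is known only as relative library size, from the steps between low values.

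Groups of 3 libraries came from the sample labels and were numbered in the order of deposit. limma (3.58.1, R 4.3.3) was fitted per line with 1 mean per group and an intensity trend, and differences between human lines used all 60 libraries. Genes needed a value of at least 1 in 3 libraries of the fit. *P* values were adjusted by the Benjamini-Hochberg method over all genes tested, and genes were called at an adjusted *P* below 0.05 and a log2 difference of at least 1. Scripts were checked on simulated data.

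Library values are given for members called in at least 2 of the 4 main comparisons whose higher group averaged 2 or more, and for each comparison's largest changes, up to 3 called members a direction whose groups did not overlap. Values given for other members were chosen after they were seen. A gene that meets the naming rule and an NE marker are not reported here and entered no count of members or marker sum. Members, gene lists and rules were chosen with earlier results of these data known. Alternatives were no filter, median centring, quantile normalization, a pseudocount of 0.1, no trend, only the compared groups, and leaving out each library. Promoters came from RefSeq (GRCh38.p14), and no coordinates of that build were set against hg19. Python 3.11.15, pandas 2.3.3, numpy 2.4.6 and matplotlib 3.10.9 were also used.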

Additional observations from a re-analysis of the deposited data

Results flagged for a closer look

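The results below are listed because some members' response differed between lines, vectors or KO states by a test of the difference itself. That test was limma with Benjamini-Hochberg adjustment over all genes. A count near the share of all genes is not a result about the members as a set. With 3 libraries a group, no test for a single outlying library was made.

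Between vector lines, 19 of 32 members responded differently in H69 and H82, where 43.1% of all genes did, led by *LAMA3* (-6.94 as H69 minus H82) and *ITGA4* (6.41). H69 and H524 differed in 17 members (36.8% of all genes), with *ITGA4* at 5.55 and *ITGA1* at 3.42 as H69 minus H524. H82 and H524 differed in 15 (19.7%), with *ITGA1* at 3.90 and *LAMA3* at 3.54 as H82 minus H524. The lines share no library, but the number of transductions behind each line is not stated, so line and transduction cannot be told apart.

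Within H82, 5 of 24 members responded differently in *REST* KO cells (12.9% of all genes), with *ITGAV* at -2.22 and *LAMA5* at -1.96 as KO minus intact, and 3 in STING KO cells (7.12%), with *ITGA1* at -2.50 and *ITGB3* at -2.14. In H524, 13 of 25 members responded more to N1ICD than to REST (9.88% of all genes), led by *ITGA5* (4.23) and *LAMA4* (3.60). *LAMA4* passed the filter only through the induced N1ICD libraries, which fixed its larger response in part. In COR-L88, 6 of 23 members responded less to TAS1440 in STING KO cells (3.31% of all genes), led by *LAMB3* (-2.99) and *ITGAV* (-1.69). *LAMB3* and *ITGA5*, both among the 6, passed the filter only through the intact TAS1440 libraries, which fixed their smaller response in part.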

How the results depend on the processing

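No paired analysis was possible because the titles number the libraries in 1 running series, and nothing ties a library of one group to a library of another.

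Of the values for named genes, 623 kept their direction and side of the threshold when 1 library was left out, 23 lost their call, 2 gained one and 3 changed sign. Those 3 were *ITGA2* in H524, which ran from -0.56 to 0.33 (0.05 without induced library 3), and *ITGA4* in H524, which ran from -0.74 to 0.10, and *ITGA2* in H524 was also 0.0050 with a pseudocount of 0.1. None of these was called in any setting. Of the 116 values, 112 to 116 stayed the same under each other alternative. Calls lost by scaling were *ITGA4* in H82 (-0.96), *ITGA5* (0.96) and *ITGA6* (0.99) in COR-L88 after quantile normalization, and *ITGA3* in H69 (0.98 after quantile normalization, 0.99 after median centring).

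With a pseudocount of 0.1 the count of members called was 1 for the H82 STING KO response, 2 for the H524 REST vector, 6 for uninduced H524 N1ICD and 8 for uninduced H69 against parental cells and 3 for the COR-L88 STING KO response. With only the compared groups it was 1 for uninduced H524 N1ICD against parental cells. With 1 library left out the counts ran from 9 to 14 for N1ICD in H524, 8 to 16 for its response against REST, 11 to 17 for induced N1ICD against induced REST and 2 to 5 for uninduced against parental H524. They ran from 3 to 8 for the *REST* KO response, 2 to 5 for the STING KO response, 4 to 5 for induced *REST* KO against intact and 1 to 4 for uninduced against parental H82. They ran from 3 to 5 for uninduced against parental H69, 4 to 9 for the COR-L88 STING KO response, 4 to 9 for TAS1440 against DMSO and 4 to 10 for TAS1440 against TAS1440 plus GSI in KP1. Where a group is the only one to reach 1, leaving out any of its libraries removes the gene from the test.

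Median centring or quantile normalization moved the median of all genes by over 0.1, to -0.13 and -0.14 for COR-L88 TAS1440 and to -0.13 for both in H524 with N1ICD. After median centring it was 0.16 for H69 against H82 and against H524. For COR-L88 TAS1440 against TAS1440 plus GSI the median went from 0.04 to -0.09 after median centring and -0.08 after quantile normalization. For N1ICD in H82 *REST* KO cells it went from -0.01 to -0.13 after quantile normalization. Without read counts, zeros cannot be given an upper limit, low genes have understated folds, and 3 libraries a group limit the precision.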
